A study of Mus musculus with 8 samples.

Results

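Hox genes were read in connexin 43 KO and WT mouse oocytes, blastocysts and implantation sites on Affymetrix Mouse 430 2.0 arrays. Members were all genes whose platform symbol is Hoxa, Hoxb, Hoxc or Hoxd followed only by digits and which have at least 1 probe set annotated to that gene alone. A probe set is the group of short array probes that together read 1 transcript. This gave 33 Hox genes with 48 probe sets, of 18193 genes on the array, and of 39 Hox genes that RefSeq lists in the mouse. Hox genes without a probe set of their own are not described, and 3 probe sets shared between neighbouring Hox genes were left out. The samples were polyadenylated RNA from metaphase II oocytes (1 KO and 1 WT array), blastocysts (2 KO and 2 WT arrays) and implantation sites (1 KO and 1 WT array). KO refers to Gja1, which encodes connexin 43, a protein of gap junction channels. By the series title the depletion was directed to the oocyte. The allele, the driver of the depletion, the strain, the ages, the day of implantation and the number of animals or embryos per array are not given in the sources used here, nor whether the blastocyst replicates came from separate animals, so p-values cover the spread among these samples alone, which may be technical.

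By its brightest probe set Gja1 read 9835 on blastocyst WT replicate 1 but 574 on the array labelled blastocyst WT replicate 2, next to 375 and 553 in the KO blastocysts. By this signal that array went against its label. Still, 574 was above that array's background (219), while both KO values were below theirs (395 and 559.7). Another Gja1 probe set read 855 on that array, above WT replicate 1 (337) and the KO arrays (516 and 535). Every other Gja1 probe set read lower on it than on WT replicate 1. Each direction drawn from that array below is that of the labels. At the implantation site Gja1 by its brightest probe set read 28105 in KO and 44493 in WT. In oocytes it read 150 in KO and 126 in WT, both below background. Oocyte markers stood above background on the oocyte arrays (8 and 9 of 10) and blastocyst markers on the blastocyst arrays (10 to 11 of 11). The implantation site arrays are labelled as embryo, but markers of decidua and uterine stroma had a summed signal of 163980 in KO and 141090 in WT there, with 10 and 11 of 11 above background, against sums of 1478 to 4279 on the other 6 arrays. By count alone, oocyte WT also had 10 of 11 above background, and oocyte KO and the blastocyst arrays had 0 to 6. Trophoblast markers were above background for 1 and 2 of the 4 measured. Immune markers were above background for 6 of 8 on both implantation site arrays, and for 2 to 5 of 8 on the other arrays. Smooth muscle markers were above it for 4 of 4 on both implantation site arrays, and for 1 to 3 of 4 on the others.

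Hox genes encode homeodomain transcription factors that give cells their identity along the head to tail axis and in the limbs and the reproductive tract. In mammals they lie in clusters, and the order of genes along a cluster, counted as paralogue groups, follows where and when they act: low groups act early and towards the head, high groups late and towards the tail. Polycomb proteins keep the clusters silent in early embryos, trithorax proteins, retinoic acid and Cdx factors help open them, and Pbx and Meis proteins bind DNA together with Hox proteins. In the uterus, Hoxa9, Hoxa10, Hoxa11 and Hoxa13 pattern the Müllerian duct from oviduct to vagina, and Hoxa10 and Hoxa11 are needed in the adult stroma for implantation and decidualisation.

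In the RefSeq genes of GRCm38.p6, cluster A lies on chr6 (9 of its 11 genes measured), cluster B on chr11:96194316-96368254 (9 of 10), cluster C on chr15:102921131-103036856 (7 of 9) and cluster D on chr2:74668225-74765142 (8 of 9). Genes called bright at the implantation site had a probe set that tested higher there than in blastocysts (Hoxa9, Hoxa10, Hoxd8, Hoxd9 and Hoxd10). Their upstream sequences, and that of Hoxa5, which was bright in blastocysts by probe set 1443803_x_at only, are shown so that members with like values can be compared. Each is the 150 bases just upstream of a RefSeq transcript start in GRCm38.p6, written 5′ to 3′ on the gene's strand, and capitals mark CpG dinucleotides. Hoxa10 has entries for 2 starts. Hoxc6 has no entry in the promoter table.
Hoxa9 (chr6:52227371-52227520, minus strand): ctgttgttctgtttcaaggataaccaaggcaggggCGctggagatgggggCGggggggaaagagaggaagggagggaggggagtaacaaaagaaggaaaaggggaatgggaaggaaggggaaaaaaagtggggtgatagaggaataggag
Hoxa10, inner start (chr6:52234940-52235089, minus strand): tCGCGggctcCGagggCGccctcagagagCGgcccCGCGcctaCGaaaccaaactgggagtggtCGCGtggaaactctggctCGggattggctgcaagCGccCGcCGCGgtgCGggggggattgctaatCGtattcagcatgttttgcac
Hoxa10, outer start (chr6:52240855-52241004, minus strand): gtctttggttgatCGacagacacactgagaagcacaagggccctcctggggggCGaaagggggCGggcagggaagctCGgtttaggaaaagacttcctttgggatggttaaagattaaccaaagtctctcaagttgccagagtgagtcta
Hoxd8 (chr2:74704465-74704614, plus strand): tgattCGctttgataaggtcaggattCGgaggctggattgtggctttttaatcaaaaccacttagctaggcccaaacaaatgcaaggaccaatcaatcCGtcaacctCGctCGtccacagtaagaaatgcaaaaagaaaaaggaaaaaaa
Hoxd9 (chr2:74697613-74697762, plus strand): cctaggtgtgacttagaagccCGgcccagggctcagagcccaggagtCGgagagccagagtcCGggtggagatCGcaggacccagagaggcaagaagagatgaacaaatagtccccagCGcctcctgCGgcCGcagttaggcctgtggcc
Hoxd10 (chr2:74691741-74691890, plus strand): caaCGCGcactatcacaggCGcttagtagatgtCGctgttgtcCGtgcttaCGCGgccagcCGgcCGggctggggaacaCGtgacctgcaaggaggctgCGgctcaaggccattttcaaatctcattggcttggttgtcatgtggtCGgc
Hoxa5 (chr6:52204588-52204737, minus strand): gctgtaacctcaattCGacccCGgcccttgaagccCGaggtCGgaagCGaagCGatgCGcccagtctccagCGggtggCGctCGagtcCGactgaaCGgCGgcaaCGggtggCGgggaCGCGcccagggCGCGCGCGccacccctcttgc
In these 150 bases Hoxa9 had 2 CpG dinucleotides, the outer Hoxa10 start 4, Hoxd8 5, Hoxd9 7, Hoxd10 12, the inner Hoxa10 start 17 and Hoxa5 21. The 5 genes that were bright at the implantation site thus differed widely in CpG content. Over the whole 250 upstream bases in the table, 24 Hox promoters of 22 genes had a median of 12.5 CpG dinucleotides (2 to 35) and 58.6% G and C, against medians of 6 and 52.4% over all 32851 promoters of the table, which include those of noncoding genes. The core promoter motif TATAAA stood in 4 of the 24 on either strand (16.7%) and in 12.4% of all promoters. The Cdx motif TTTATG stood in 5 of 24 (20.8%) against 10.8%, in the promoters of Hoxa7, Hoxb8, Hoxd3, Hoxd4 and Hoxd11, and it may overlap the core promoter motif. The joint Hox and Pbx motif TGATTNAT stood in 2 of 24 (8.33%) against 2.82%, in those of Hoxa2 and Hoxd11. The palindromes of the oestrogen receptor and of the progesterone receptor stood in 0 of the 24, and in 0.0639% and 0.387% of all promoters. The 7 windows printed hold no match to any of these motifs, and the match upstream of the inner Hoxa10 start lies beyond its window. No match says only that these letters are not in the window.

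Hox genes above background were between 4 and 20 of 33, depending on the array. The table holds no detection calls, so the brightest of 15 Bacillus control probe sets of each array was taken as background, a strict level that ran from 100.2 to 559.7 signal units, and each gene was read by its brightest probe set (highest mean on the log2 scale). Hox genes above that level numbered 11 of 33 in oocyte KO (47.5% of all genes were), 18 in oocyte WT (63.5%), 7 and 4 in blastocyst KO replicates 1 and 2 (45.5% and 35.1%), 10 and 15 in blastocyst WT replicates 1 and 2 (57.7% and 59.2%), 14 in implantation site KO (59.5%) and 20 in implantation site WT (73.4%). On each array the share of Hox genes was below that of all genes. On both implantation site arrays 11 of 33 were above background (56% of all genes), on all 4 blastocyst arrays 3 (30.7%) and on both oocyte arrays 8 (41.2%). The control level itself was higher in the blastocyst KO (395 and 559.7) than in the WT arrays (199 and 219), so a count of KO genes above it is stricter. With the median control in its place, 22 to 30 of 33 were above it, with no share over all genes taken.

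**Figure D1:**
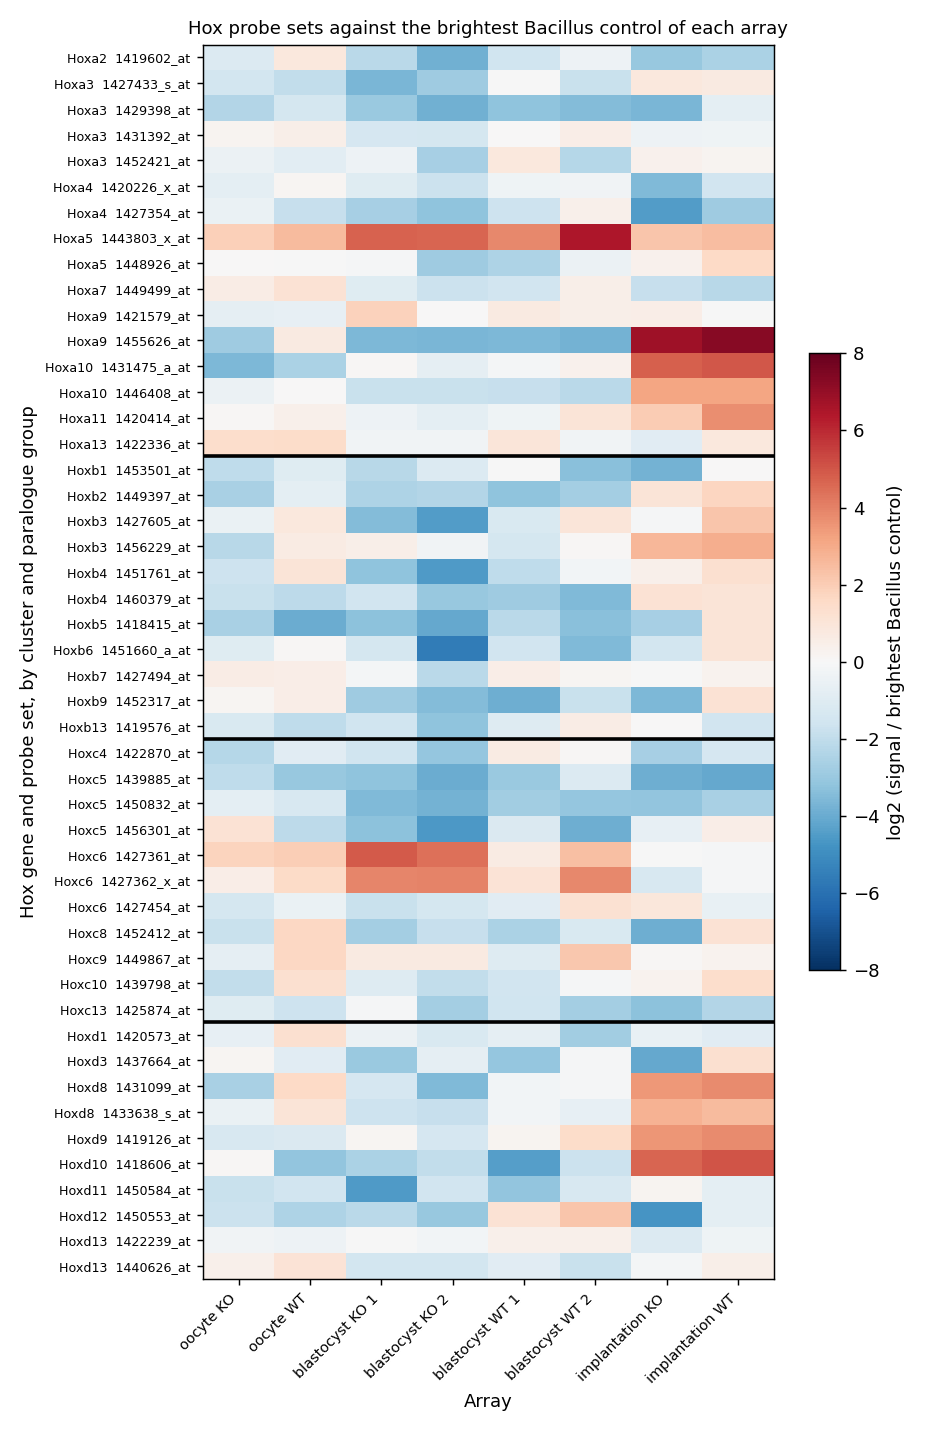
Signal of the 48 Hox probe sets (rows, by cluster and paralogue group) on the 8 arrays (columns), as log2 of the signal over the brightest Bacillus control of that array, where 0 is the control level. Hoxa9 by 1455626_at only, Hoxa10, Hoxd8, Hoxd9 and Hoxd10 stand out at the implantation site. In blastocysts Hoxa5 by 1443803_x_at only and Hoxc6 by 1427361_at and 1427362_x_at do so.

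Counting every probe set rather than 1 a gene, 18 of 48 (13 genes) were above background on both implantation site arrays, 4 (Hoxa5, Hoxa9 and Hoxc6) on all blastocyst arrays and 10 (9 genes) on both oocyte arrays. No share over all probe sets was taken, so these counts do not set Hox genes against other genes. The Hoxa5 probe set 1443803_x_at was above it on all 8 arrays. In the other direction, 4 probe sets, 1 each of Hoxa3 and Hoxc13 and 2 of Hoxc5, were above background on no array. By position, 3 of 10 anterior genes (groups 1 to 4), 2 of 9 central genes (groups 5 to 8) and 6 of 14 posterior genes (groups 9 to 13) were above background on both implantation site arrays. By cluster these were 3 of 9 in A, 3 of 9 in B, 2 of 7 in C and 3 of 8 in D.

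The Hox genes with a probe set called higher at the implantation site than in blastocysts were neighbours: Hoxa9 and Hoxa10 in cluster A, and Hoxd8, Hoxd9 and Hoxd10 in cluster D. Signal alone did not set them apart. At the implantation site Hoxb3 by 1456229_at read 833 in KO and 742 in WT, Hoxa11 531 and 1296, and Hoxa5 by 1443803_x_at 602 and 546. Hoxa9 (chr6:52223097-52227370), a posterior gene active in the oviduct, uterus and blood progenitors, read 14232 in KO and 15559.7 in WT there by probe set 1455626_at. The same probe set read 33.1 and 44.7 in KO blastocysts, 16.2 and 16.2 in WT blastocysts, 47.2 in oocyte KO and 221 in oocyte WT. It was below background on all 4 blastocyst arrays and on that of oocyte KO, and no value of the other stages came near those of the implantation site. With every probe set fitted on its own over the 8 arrays (limma with stage and genotype), its difference from blastocysts was 9.22 on the log2 scale (SE 0.85, Benjamini-Hochberg adjusted p = 2.78e-06), at least 47.4-fold when the dim side is set to background. The platform table gives this probe set no transcript accession, and its difference was not refitted with arrays left out.

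Hoxa10 (chr6:52231197-52240854), which uterine stroma needs for decidualisation, was bright at the implantation site by both of its probe sets. Probe set 1431475_a_at read 3532 in KO and 3207 in WT, against 424 and 339.7 in KO blastocysts, 181 and 274 in WT blastocysts, and 27.7 and 23.1 in KO and WT oocytes. The second, 1446408_at, read 1158 and 911 in KO and WT implantation sites and 49.5 to 241 on the other 6 arrays. For either, both implantation site arrays lay above all others. The first was 3.53 higher than in blastocysts on the log2 scale (SE 0.57, adjusted p = 8.35e-04) and at least 16.0-fold higher than in oocytes, where it was below background. The second was 3.60 higher than in blastocysts (SE 0.71, adjusted p = 0.00210, each probe set fitted).

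**Figure D2:**
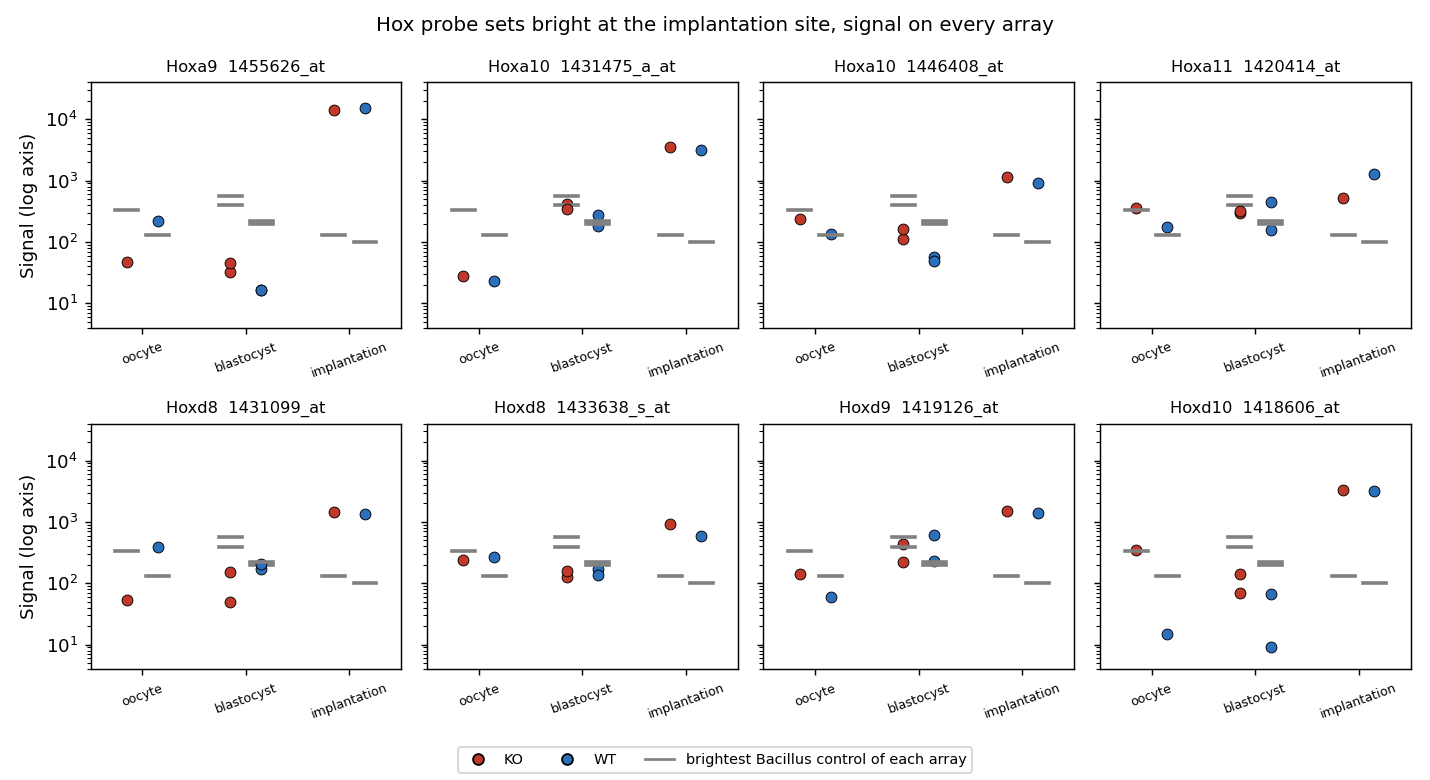
Signal (log axis) of 8 Hox probe sets on each array by stage, KO in red and WT in blue, with grey bars at the brightest Bacillus control of each array. At the implantation site both arrays stand above the control in all 8 panels, and above every other array in all of them.

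Hoxd10 (chr2:74684273-74695106), a posterior gene that patterns the limb and the lumbar spinal cord, read 3261 and 3227 in KO and WT implantation sites. In blastocysts it read 69.0 and 144 in KO and 9.33 and 66.9 in WT, all below background. The difference was 6.02 (SE 1.09, adjusted p = 0.00164), or at least 10.3-fold. In oocytes it read 351 in KO, just above that array's control of 334, and 15.1 in WT.

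Hoxd9 (chr2:74697763-74700208), the neighbour of Hoxd10, read 1505 and 1385 at the implantation site, 433 and 219 in KO blastocysts and 233 and 615 in WT blastocysts. The difference was 2.08 (SE 0.63, adjusted p = 0.0244). From oocytes (139 and 59.7) it differed by 3.99 (SE 0.73, adjusted p = 0.00131), at least 6.87-fold. Hoxd8 (chr2:74704615-74707933), the next gene, read 1461 and 1367 by probe set 1431099_at and 916 and 584 by probe set 1433638_s_at. In blastocysts both were below background on every array, with 49.4 to 204 for the first and 128 to 168 for the second. Their differences were 3.47 (SE 0.75, adjusted p = 0.00384, each probe set fitted, at least 4.51-fold) and 2.32 (SE 0.60, adjusted p = 0.0122, at least 2.33-fold). Fewer cells of a type and less RNA per cell cannot be told apart in these bulk samples. The markers of decidua and uterine stroma moved with these 5 genes, and their part in the result was not tested.

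Other members were above background on both implantation site arrays without being called higher than in blastocysts. Hoxa11 (chr6:52242105-52245810), which acts with Hoxa10 in the uterus, read 531 in KO and 1296 in WT there, 158 to 457 in blastocysts and 352 and 176 in KO and WT oocytes. Its difference from blastocysts was 1.53 (SE 0.64, adjusted p = 0.0842) and did not pass the test. Hoxb3, a hindbrain gene, read 833 and 742 by probe set 1456229_at, above 74.0 to 542 in blastocysts. It was called against oocytes (70.7 in KO and 212 in WT; 2.68, SE 0.95, adjusted p = 0.0452), but not with the mean of its probe sets (1.37, adjusted p = 0.186) or without the trend (adjusted p = 0.0629). Its probe set 1427605_at read 124 and 474 at the implantation site and 233 and 235 in oocytes (0.05, adjusted p = 0.982, each probe set fitted). Hoxb2, also of the hindbrain, read 267 and 323, against 21.6 to 112 on the other 6 arrays, and was too dim over all arrays for the filter. Hoxb4, used by blood progenitors, read 177 and 248 by probe set 1451761_at and 298 and 206 by probe set 1460379_at.

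No paralogue of the bright genes in cluster C was called higher at the implantation site than in blastocysts. Hoxc10 read 156 in KO and 268 in WT implantation sites, and Hoxc9 read 138 and 122, both above controls of 131 and 100.2. Hoxc8 read 8.81 and 221 and Hoxb9 10.8 and 227, each below the control in KO and above it in WT. Hoxd11 (chr2:74679558-74687016), which overlaps Hoxd10, read 151 and 59.5, and Hoxd12 5.03 and 58.3. Next to Hoxd10 on its posterior side, Hoxd11 was thus above background on 1 of these arrays and Hoxd12 on none. Hoxa13, which patterns the most posterior part of the tract and the digits, read 70.3 and 182. Levels of different probe sets depend on their probes as well as on RNA, so these are set beside the array's control and not beside each other.

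Between implantation sites and blastocysts, 8 of the 15 Hox genes that passed the filter on dim probe sets were called at an adjusted p under 0.05 (limma), where 35.3% of the 11746 genes tested were. Of the 8, 4 were higher (15.3% of all genes) and 4 lower (20% of all). A gene could pass the filter through the stage in which it was bright. Over all 33 genes with no filter, 10 were called (25.6% of all genes were), 4 higher (10.5%) and 6 lower (15.1%). Over the 48 probe sets fitted each, 14 were called (21.1% of all), 7 higher (8.75%) and 7 lower (12.3%). The counts without the filter were near those of all genes in share, so no statement about the family is drawn from its number of calls.

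By position, the 7 probe sets called higher were those of Hoxa9, Hoxa10 (2), Hoxd8 (2), Hoxd9 and Hoxd10, all in clusters A and D and in groups 8 to 10. None of the 11 probe sets of cluster B and none of the 11 of cluster C was called higher. The median difference over probe sets was -0.77 in A (16 probe sets), 1.33 in B, -1.91 in C and 0.49 in D (10 probe sets), beside -0.35 over all genes that passed the filter. By group, the median was -0.59 over 16 anterior, -0.76 over 15 central and 0.32 over 17 posterior probe sets. Hoxa10, Hoxd10, Hoxa5 and Hoxc6 kept an adjusted p under 0.05 without each of the 8 arrays in turn. Hoxd8 lost its call without implantation site KO (adjusted p = 0.169), and Hoxd9 without blastocyst KO replicate 2 (0.0636), without implantation site KO (0.155) and without implantation site WT (0.121).

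**Figure D3:**
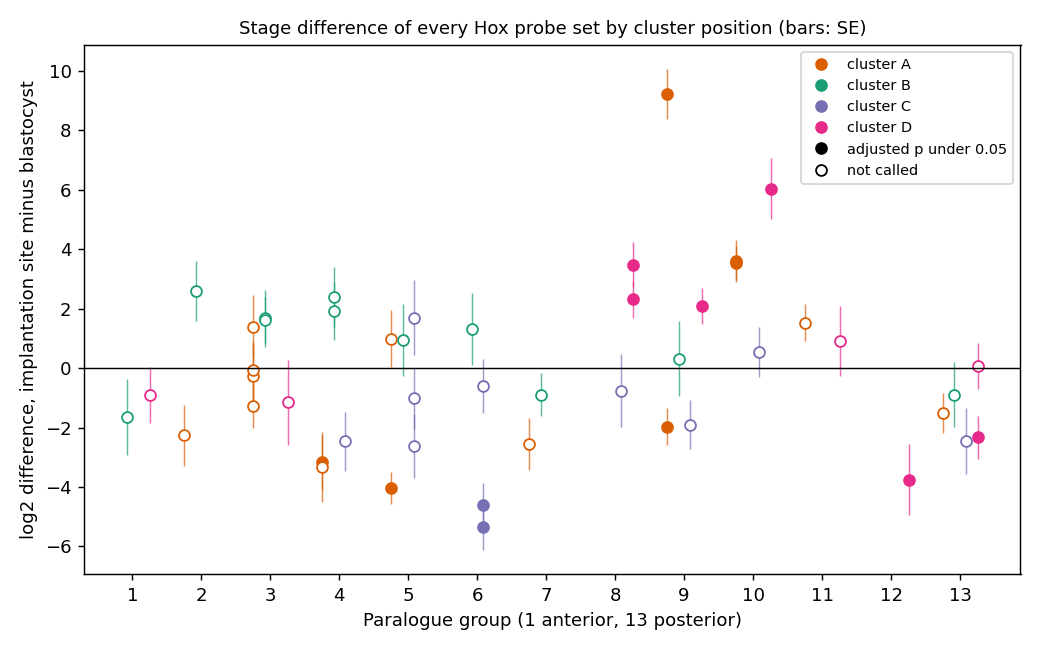
Difference between implantation sites and blastocysts (log2, bars SE, n = 2 and 4 arrays) for each of the 48 Hox probe sets against its paralogue group, coloured by cluster, with filled points for an adjusted p under 0.05 (limma, each probe set fitted). Filled points above 0 lie in groups 8 to 10 of clusters A and D, and 7 filled points lie below 0.

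Hox genes that were lower at the implantation site than in blastocysts included Hoxc6 and Hoxa5. Hoxc6 (chr15:102998226-103011882), a gene of the trunk and limb, read 127 and 94.6 at the implantation site by probe set 1427361_at, below background on both. In blastocysts it read 11838 and 11807 in KO and 308 and 1148 in WT. Over both genotypes together the difference was -4.60 (SE 0.81, adjusted p = 0.00142), at least 23.1-fold lower. That bound does not hold for WT alone, where 308 and 1148 stood against an implantation site control of 100.2. The difference was -3.18 without implantation site KO, -6.01 without implantation site WT and -5.33 without blastocyst WT replicate 1. These fits take 1 KO effect for all stages, though the genotypes lay far apart in blastocysts and close at the implantation site. Its probe set 1427362_x_at gave -5.36 (SE 0.77, adjusted p = 1.64e-04, each probe set fitted). Probe set 1427454_at did not share this. It read 242 in KO, above background, and 67.0 in WT at the implantation site, and 108 to 512 in blastocysts. Its difference was -0.60 (adjusted p = 0.681, each probe set fitted). The mean of the 3 probe sets gave -3.52 (adjusted p = 0.00287).

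Hoxa5 (chr6:52201754-52204587), needed for the lung and the cervical and thoracic vertebrae, read 602 and 546 at the implantation site by probe set 1443803_x_at. In blastocysts it read 10517 and 13925 in KO and 2809 and 19220.5 in WT, a difference of -4.04 (SE 0.58, adjusted p = 4.45e-04). Its other probe set, 1448926_at, did not show this. It read 166 and 303 at the implantation site and 35.5 to 375 in blastocysts, below background on each blastocyst array. The difference was 0.99 in the opposite direction (adjusted p = 0.454 among probe sets without suffix). The mean of both gave -1.53 (adjusted p = 0.0889). By Affymetrix's naming the suffix _x_at marks probes that can also bind other transcripts, and the platform table gives 1443803_x_at and all 3 Hoxc6 probe sets no accession.

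Hoxa9 gave opposite directions by its probe sets. Probe set 1421579_at read 1419.8 and 571 in KO and 325 and 309.7 in WT blastocysts and 191 and 97.1 at the implantation site, a difference of -1.97 (SE 0.62, adjusted p = 0.0288), while 1455626_at was 9.22 higher. The call of 1421579_at was lost without blastocyst KO replicate 1 (adjusted p = 0.123), blastocyst WT replicate 2 (0.0530), implantation site KO (0.192) or implantation site WT (0.0616), and with quantile normalization (0.0536) or a common median (0.0657). Hoxd13, a gene of the digits and the urogenital tract, read 60.4 and 77.6 at the implantation site and 259.5 to 477 in blastocysts by probe set 1422239_at (-2.32, SE 0.71, adjusted p = 0.0250). It was below background at the implantation site and in KO blastocysts, so its size cannot be read. Its call was lost with the mean of its probe sets (adjusted p = 0.161) and without blastocyst KO replicate 1 (0.0645), blastocyst KO replicate 2 (0.0801), blastocyst WT replicate 2 (0.0560) or implantation site KO (0.221). Its other probe set, 1440626_at, read 115 and 137 at the implantation site and 64.5 to 205 in blastocysts. With each probe set fitted, Hoxa4 by 1420226_x_at (adjusted p = 0.0247) and Hoxd12 (adjusted p = 0.0377) also passed as lower. Both were below background at the implantation site, Hoxa4 on all and Hoxd12 on the KO blastocyst arrays too, so no size is given.

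Against oocytes, implantation sites had 6 of 15 Hox genes called (37.2% of all genes were), 4 higher (20.5% of all) and 2 lower (16.6%). Over all 33 genes with no filter 9 were called (25.4% of all). Over the probe sets 12 of 48 were (20.9% of all), 7 higher (10.9%) and 5 lower (9.99%). The higher genes were Hoxa10 by 1431475_a_at (7.06, SE 0.66, adjusted p = 2.11e-05), Hoxd10 (5.48, SE 1.26, adjusted p = 0.00523), Hoxd9 and Hoxb3. Hoxa10 by that probe set (at least 16.0-fold) and Hoxd9 (at least 6.87-fold) were below background in oocytes. By 1446408_at, which was above background in oocyte WT, Hoxa10 was only 2.51 higher (SE 0.82, adjusted p = 0.0405, each probe set fitted). Hoxa9 by 1455626_at was 7.19 higher (SE 0.98, adjusted p = 7.69e-05, each probe set fitted). Hoxd8 by 1431099_at was 3.28 higher (SE 0.86, adjusted p = 0.0125, each probe set fitted), but by 1433638_s_at it did not pass (1.54, adjusted p = 0.105). The lower genes were Hoxc6 (-2.84, SE 0.94, adjusted p = 0.0332, at least 6.85-fold) and Hoxa13 (-2.35, SE 0.80, adjusted p = 0.0377), which read 904 and 371 in KO and WT oocytes. Hoxc6 was not called with the mean of its probe sets (-1.74, adjusted p = 0.0988) or without the trend (adjusted p = 0.0850). Its probe set 1427454_at gave 0.25 (adjusted p = 0.899, each probe set fitted). With each probe set fitted, Hoxa7, a trunk gene that read 497 and 292 in KO and WT oocytes and 36.0 and 21.8 at the implantation site, was also lower (adjusted p = 0.0155), at least 3.33-fold. Hoxa2 passed the test as well (adjusted p = 0.0447), but it was below background at the implantation site and in KO oocytes, so its size cannot be read.

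The calls of Hoxa10 and Hoxd9 against oocytes held without each of the 8 arrays in turn. Hoxd10 lost its call without oocyte WT (adjusted p = 0.0626) or implantation site WT (0.0838), and Hoxc6 without oocyte WT (0.265) or implantation site KO (0.347). Hoxa13 lost its call without oocyte KO (0.257), blastocyst KO replicate 1 (0.0538), blastocyst KO replicate 2 (0.0556) or implantation site KO (0.303). Hoxb3 lost its call without any of 6 arrays, all but oocyte WT and blastocyst WT replicate 1, with adjusted p from 0.0541 to 0.378.

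From oocytes to blastocysts 4 of 15 Hox genes were called, all higher (45.5% of all genes were called, 26.9% higher). The same count over all 33 genes with no filter stood beside 30%, and 5 of 48 probe sets beside 24.7%. Hoxa10 by 1431475_a_at rose by 3.52 (SE 0.57, adjusted p = 3.86e-04) and Hoxa5 by 1443803_x_at by 3.28 (SE 0.58, adjusted p = 7.67e-04), the latter from 1239 and 764 in oocytes. Neither was called with the mean of its probe sets (1.21, adjusted p = 0.0714, and 1.19, adjusted p = 0.156), nor was Hoxa9 (0.01, adjusted p = 0.988). Hoxa9 by 1421579_at (2.06, SE 0.62, adjusted p = 0.0183) and Hoxd9 (1.90, SE 0.63, adjusted p = 0.0280) rose less. Hoxa9 lost its call without oocyte KO (0.0724), oocyte WT (0.0688) or blastocyst KO replicate 1 (0.0908), and Hoxd9 without oocyte WT (0.250), blastocyst KO replicate 1 (0.0657) or blastocyst WT replicate 2 (0.0816). Hoxa10 by 1446408_at went the other way, from 241 and 136 in oocytes to 49.5 to 162 in blastocysts (-1.10, adjusted p = 0.222 among probe sets without suffix).

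The effect of the KO genotype had replicates in blastocysts, where 1 of the 15 tested Hox genes was called. Hoxc6 read 11838 and 11807 in the KO arrays, 308 in WT replicate 1 and 1148 on the WT array labelled replicate 2. The KO arrays were nearly equal, neither WT array reached them, and KO was 4.31 higher (SE 0.54, limma adjusted p = 0.0436), where 0.102% of all genes were called. With no filter Hoxc6 was 1 of 33 (0.0934% of all genes), and with each probe set fitted 1 of 48 (0.0286% of all). Without either WT array the difference was 3.36 (without replicate 1, adjusted p = 0.0428) and 5.26 (without replicate 2, adjusted p = 0.00141).

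The other Hoxc6 probe sets did not pass. Probe set 1427362_x_at read 6015 and 8790.5 in KO and 422 and 3095 in WT, again with no overlap (2.67, SE 0.73, adjusted p = 0.257, each probe set fitted). Probe set 1427454_at read 117 and 212 in KO and 108 and 512 in WT, with overlap and mostly below background. The mean of the 3 gave 2.14 (SE 0.69, adjusted p = 0.297), and the fit without the intensity trend 4.31 (adjusted p = 0.269), so the call rests on 1 probe set and on the trend. Immune markers had a summed signal of 8531 and 14623 in KO and 1865 and 5039 in WT blastocysts, with Ptprc below background on all 4 arrays and 3, 2, 5 and 3 of 8 above it. The ratio of 3′ to 5′ Actb signal, a sign of RNA length, was 25.7 and 39.0 in KO and 69.3 and 69.1 in WT blastocysts, with no overlap. The same ratio for Gapdh went the other way, 11.2 and 11.8 in KO and 7.27 and 7.71 in WT, also with no overlap. The part of the immune markers and of these ratios in the result was not tested.

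**Figure D4:**
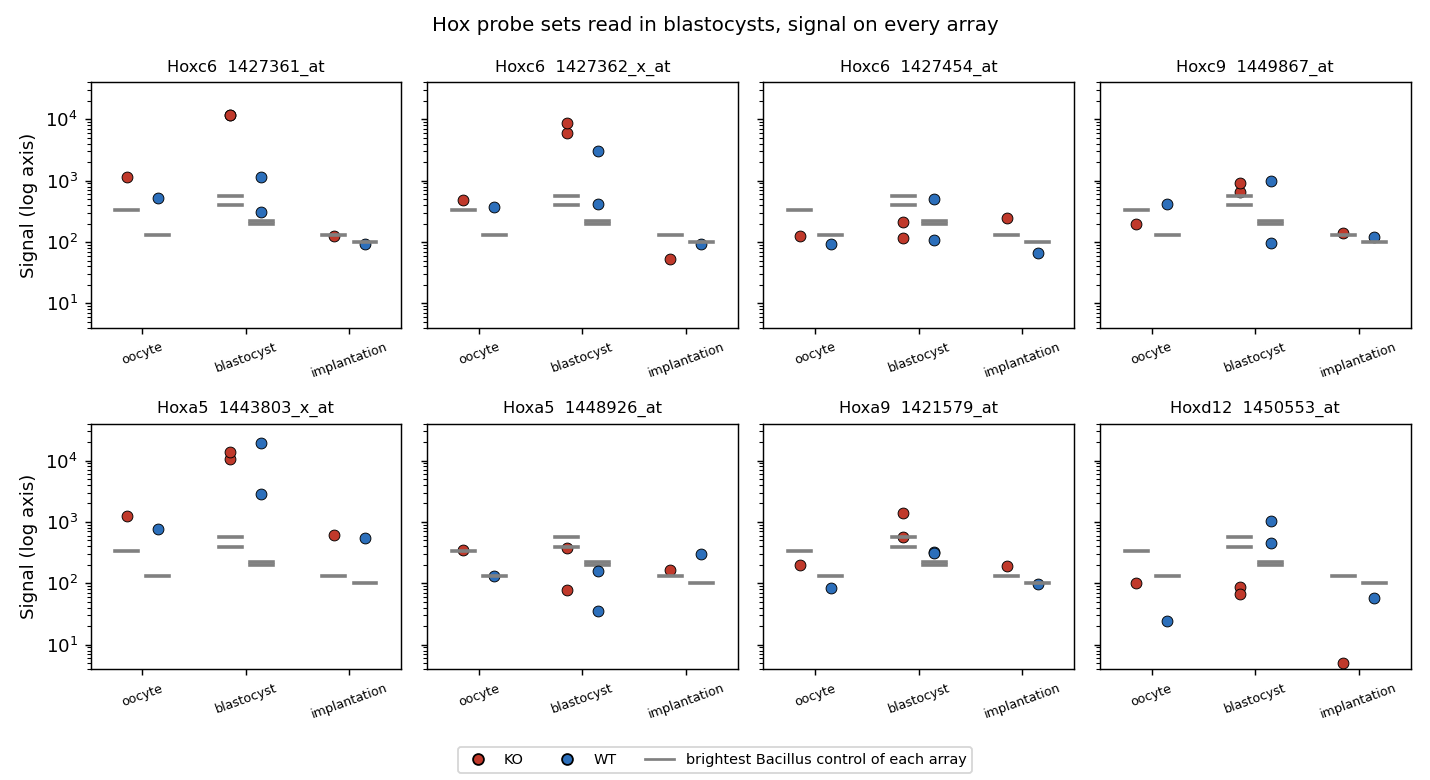
Signal (log axis) of 8 Hox probe sets on each array by stage, KO in red and WT in blue, with grey bars at the brightest Bacillus control of each array. The KO blastocysts are above both WT blastocysts for Hoxc6 1427361_at and 1427362_x_at and for Hoxa9 1421579_at and below both for Hoxd12, while Hoxa5 and Hoxc9 differ between the 2 WT arrays.

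For Hoxa5 and Hoxc9 the WT blastocyst arrays lay far apart. Hoxa5 by 1443803_x_at read 2809 in WT replicate 1 and, on the array labelled WT replicate 2, 19220.5, below and above the KO arrays (0.72, SE 0.74, adjusted p = 0.662). Without the array labelled WT replicate 2 the KO arrays were 2.11 higher (SE 0.28, adjusted p = 0.0204, the lone WT array assumed to vary like the others), and without WT replicate 1 they were 0.67 lower on the log2 scale (-0.67, adjusted p = 0.368). Hoxc9, a thoracic gene, read 663 and 907 in KO, 95.8 in WT replicate 1 and, on the array labelled WT replicate 2, 985 (1.34, SE 0.94, adjusted p = 0.517). Other members had no overlap between genotypes and did not pass. Hoxd12 read 87.6 and 68.0 in KO, both below background, and 451 and 1043 in WT (-3.15, SE 0.71, adjusted p = 0.196, each probe set fitted). Hoxa9 by 1421579_at (1.50, SE 0.54, adjusted p = 0.268) and Hoxb3 by 1456229_at (1.92, SE 0.73, adjusted p = 0.281) were higher in both KO arrays. Hoxb3 by 1427605_at went the other way, also with no overlap: 36.1 and 25.5 in KO, below background, and 86.4 and 424 in WT (-2.66, SE 1.15, adjusted p = 0.405, each probe set fitted). Over all 33 genes, 9 had both KO arrays above both WT arrays (24.9% of all genes) and 3 had them below (20.5%).

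Over all 3 stages, 0 of 15 Hox genes passed for a KO effect common to the stages (limma, 0% of all genes). The 3 largest differences among the 15 were those of Hoxc6 (2.55, SE 0.66), Hoxd10 (2.14) and Hoxa9 (1.31), all at an adjusted p of 0.707. At the implantation site Hoxc6 was below background in both genotypes, so its KO difference could be read in oocytes and blastocysts only.

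In oocytes, with 1 array per genotype and no replicate check, 8 of 15 Hox genes were at least 2-fold higher in KO (23.9% of all genes) and 3 at least 2-fold lower (12.3%). Over all 33 with no filter these were 15 (33.8%) and 5 (12.3%). The split turned with the scaling: with quantile normalization it was 1 higher and 4 lower, and with a common median 1 and 3, where the second scaling shifted the all-gene median by -0.55. Among genes above background on at least 1 array, the largest differences were those of Hoxd10 (351 in KO and 15.1 in WT, at least 2.65-fold), Hoxc5 by 1456301_at (729 and 31.6, at least 5.51-fold) and Hoxd3 (375 and 69.8, at least 2.84-fold). All 3 were below background in WT. This ranking took the brightest probe set of each gene. By its other probe set, 1431099_at, Hoxd8 went the other way (54.2 in KO, below background, and 393 in WT, at least 1.18-fold). The oocyte arrays also differed in control level (334 in KO, 132 in WT) and in the ratio of 3′ to 5′ Actb signal (6.68 in KO, 33.4 in WT), whose part was not tested.

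At the implantation site, again 1 array per genotype, the genes called higher there lay close together in KO and WT, Hoxd8 by 1433638_s_at the least so. Hoxa9 by 1455626_at was 14232 in KO and 15559.7 in WT, Hoxa10 by 1431475_a_at 0.14 higher in KO on the log2 scale, Hoxd9 0.12 higher and Hoxd10 0.02 higher. Hoxd8 was 0.10 higher by 1431099_at and 0.65 higher by 1433638_s_at (916 against 584). None of the 15 was at least 2-fold higher in KO (6.12% of all genes) and 2 were at least 2-fold lower (15.9%), Hoxa11 (-1.29) and Hoxa13 (-1.37, at least 1.39-fold, below background in KO). With a common median, a scaling that shifted the all-gene median by 0.41, the count was 2 higher and 0 lower, and with quantile normalization 1 and 1. Over all 33, 2 were at least 2-fold higher (10.3% of all genes) and 10 lower (24%). By the measured signals the lowest KO values relative to WT were those of Hoxd3 (7.63 in KO and 242 in WT, at least 1.85-fold), Hoxc8 (8.81 and 221, at least 1.69-fold) and Hoxb9 (at least 1.74-fold). All 3 were below background in KO, so their bounds are smaller than the 2.44-fold of Hoxa11, which was above it in both.

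The genes that act with or on Hox genes were read in 5 lists, none of which had a gene called in either tested KO comparison. Of the cofactors that bind DNA with Hox proteins, 9 of 13 were tested, and against blastocysts 3 were higher at the implantation site and 2 lower (35.3% of all genes called). Meis2 read 10610.0 and 8258 there and 34.3 to 1348 in blastocysts (4.95, SE 0.91, adjusted p = 0.00180), Pbx3 rose by 2.81 and Meis1 by 2.05. Gmnn, which holds Hox proteins back, was lower (-1.31). In blastocysts Meis2 read 769 and 1348 in KO and 34.3 and 235 in WT, with no overlap (3.50, SE 0.90, adjusted p = 0.168), and did not pass.

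Of 21 other homeobox genes linked to the Hox clusters or their ParaHox relatives, 4 passed the filter, and 3 were lower at the implantation site than in blastocysts (20% of all genes). Cdx2, the trophectoderm factor that also drives Hox genes later, read 3084 to 5979.6 in blastocysts and 111 and 31.1 at the implantation site (-6.31, SE 0.56, adjusted p = 2.00e-05, at least 40.7-fold). Evx2, which lies next to Hoxd13 at the posterior end of cluster D, read 3769.6 and 2004 in KO blastocysts, 236 in WT replicate 1 and, on the array labelled WT replicate 2, 7006, and 134 and 168 at the implantation site (-3.65, SE 1.04, adjusted p = 0.0188). It was low on the same blastocyst array as Hoxa5 and Hoxc9. Cdx4 was also lower (-2.20, adjusted p = 0.0456), with 1 of 4 blastocyst arrays and neither implantation site array above background.

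In the retinoic acid pathway 6 of 19 genes were tested, and the synthetic enzymes Aldh1a2 (2.27, adjusted p = 0.0167) and Rdh10 (1.61, adjusted p = 0.0256) were higher at the implantation site than in blastocysts (15.3% of all genes were). Of 25 Polycomb and trithorax genes 21 were tested. From oocytes to blastocysts 11 were lower (18.6% of all genes were) and 2 higher (26.9%), among them the Polycomb genes Phc2 (-4.42) and Bmi1 (-4.33, from 46840.0 and 67981 in KO and WT oocytes to 1672 to 6746 in blastocysts) and the trithorax-linked Ash2l (5.56 higher). From blastocysts to implantation sites 4 were higher (15.3% of all genes) and 3 lower (20%). Of 20 uterine genes known to act with Hoxa10 and Hoxa11, 19 were tested, and 9 were higher (15.3% of all genes) and 4 lower (20%) at the implantation site than in blastocysts. Hand2, the stromal mediator of progesterone action, read 18803 and 15722 there and 20.3 to 271 in blastocysts (7.85, SE 0.75, adjusted p = 3.19e-05), where 1 of 4 arrays was above background. The steroid receptors Esr1 (at least 27.3-fold) and Pgr (at least 92.3-fold) were below background on all 4 blastocyst arrays, and Msx2, a homeobox gene, was lower (-3.23).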

How the data were processed

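Per the submitters' processing notes the arrays were processed with MAS5, and the deposited table holds one intensity per probe set and array on a linear scale. On every array the trimmed mean is 500, and no detection call was used here. Probe sets were named from the platform annotation (45101 in all, 34945 with 1 gene). Log2 intensity, computed here from the deposited values, was tested with limma 3.58.1 (two-sided, intensity trend, Benjamini-Hochberg adjustment over all genes tested) in R 4.3.3. Each gene was read by its probe set with the highest mean, and the upper 50% of probe sets were kept, which left 11746 of 18193 genes and 15 of 33 Hox genes. Blastocysts were fitted on their own (2 against 2), stages over 8 arrays with stage and genotype as terms. Bounds written as at least N-fold set the dim side to the brightest Bacillus control of each array. This takes it that no Bacillus RNA was spiked in, a point on which labels and notes are silent. The number of arrays limits the precision.

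Genes were named where called, where above the control on all arrays of a stage, or, in KO comparisons, where among the largest differences. Others were chosen after their values were seen. Members and gene lists were chosen with earlier results of these data known. Blastocysts with the same replicate number did not deviate together (r = 0.0182 over 11746 genes), so no pairing was used. The fits were tested on simulated data. Alternatives were another scaling, pseudocount, filter, probe set rule and trend, and leaving out each array.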

Additional observations from a re-analysis of the deposited data

Results flagged for a closer look

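Hoxa13 moved in opposite directions between KO and WT in oocytes and at the implantation site. It was 1.29 higher in KO oocytes on the log2 scale (904 against 371) and differed by -1.37 at the implantation site (70.3 against 182). With 1 array per genotype in each stage the difference between the stages was not tested.

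Hoxb5os, an antisense transcript at Hoxb5 that is no member, stood above the brightest control on all 8 arrays by probe set 1447886_at. It read 1354 and 323 in KO and WT oocytes, 1998 and 2662 in KO blastocysts, 467 in blastocyst WT replicate 1, 702 on the array labelled blastocyst WT replicate 2, and 1554 and 852 in KO and WT implantation sites. Hoxb5 itself read 55.9 and 8.62, 41.1 and 32.5, 44.4 and 22.1, and 20.9 and 206 on the same arrays, above the control in implantation site WT only.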

How the results depend on the processing

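Of the named Hox results under their alternatives, 236 kept direction and side of the threshold, 46 kept direction and lost the threshold, and 6 reversed. The reversals came with another probe set for the gene: without suffixed probe sets Hoxa5 gave 0.99 for implantation site against blastocyst and -0.90 for blastocyst against oocyte, and Hoxa10 -1.10 for the latter. Hoxa9, read by 1455626_at with a pseudocount, gave 7.67 and -1.11, and as the mean of its probe sets 3.62 for implantation site against blastocyst. In KO against WT blastocysts the Hox count went from 1 to 0 with the mean of all probe sets, without suffixed probe sets and without the trend, and ranged from 1 to 2 with single arrays left out (2 without the array labelled WT replicate 2). Over all genes that comparison called 12, but 73 with a common median, 23 with a pseudocount, 34 in the upper 30% of probe sets, 5 without suffixed probe sets, 0 with the mean or without the trend, and 4 (without WT replicate 1) to 316 (without the array labelled WT replicate 2) with single arrays left out. The replicate block gave 1 Hox gene (Hoxc6, adjusted p = 0.00386) and 92 genes in all, and the numbers do not pair the samples. For the KO effect common to stages the Hox count was 0 with each single array left out, and 2 genes in all were called without either implantation site array.

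Implantation site against blastocyst gave 3 Hox genes in the upper 30% of probe sets and 4 (without implantation site KO) to 9 with single arrays left out. Against oocyte it gave 2 in the upper 30%, 10 genes with each probe set fitted and 3 (without implantation site KO) to 6 with single arrays left out. Blastocyst against oocyte gave 2 with the mean, without suffixed probe sets and in the upper 30%, and 2 (without oocyte WT or blastocyst KO replicate 1) to 6 with single arrays left out. A common median shifted the all-gene median by 0.36, 0.19 and -0.17 in these comparisons. The share of calls that were higher went from 43.3% to 56.4% in the first. The KO to WT count of 2-fold differences in oocytes was 11, but 5 with quantile normalization, 4 with a common median and 20 with no filter. At the implantation site it was 2, but 1 with a pseudocount and 12 with no filter. With all Bacillus controls, 4 Hox genes were above the brightest in oocyte KO, 4 in blastocyst WT replicate 1 and 6 on the array labelled WT replicate 2. With the median control there were 22 in oocyte KO, 29 and 23 in blastocyst KO replicates 1 and 2, 27 and 26 in WT, and 25 in implantation site KO. The cause of these changes was not tested. The bright Bacillus controls, up to 559.7, limit what can be read of dim genes.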

Other observations

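Antisense transcripts beside the members were read by probe sets of their own. Hoxa11os, transcribed against Hoxa11, by 1452400_a_at read 599 and 717 in KO and WT implantation sites, 24.0 to 310.1 in blastocysts and 87.4 and 212 in KO and WT oocytes. Hoxd3os1 by 1460056_at read 1882 and 1296 at the implantation site, 393 to 642 in blastocysts and 319 and 59.5 in oocytes. Their other probe sets did not share this: Hoxa11os by 1457646_at read 33.0 and 16.7 at the implantation site and 125 and 58.5 in oocytes, and Hoxd3os1 by 1430263_at read 164 and 500.4 at the implantation site and 801 and 864 in KO blastocysts. None of these was tested.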
